A study of Homo sapiens with 27 samples.

Results

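The messenger RNA response of MDA-MB-231 cells to 48 h of 5SGlcNAc was measured on 6 arrays, 3 of treated cells and 3 of vehicle cells, out of 27 arrays in the series. The 6 arrays were chosen by their labels alone. MDA-MB-231 is a human breast cancer line of mesenchymal character, grown here in DMEM with 10% serum. Treated cells received 5SGlcNAc at 50 µM and control cells received DMSO, and total RNA was hybridised to Affymetrix arrays that the labels name HG-U133A+2. A further 3 arrays of cells given 25 µM Thiamet-G for 48 h entered the fit only to estimate the spread, and 18 single arrays cover 0 to 24 h, 1 for each treatment and time. All groups share the line and the medium, and no genetic change is given for any of them. Nothing in the labels says that the 3 arrays of a group came from separate cultures, so p-values measure the spread between these arrays, which may be technical. The array numbers in the labels run on within a treatment, so the order of processing and the treatment cannot be told apart.

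O-GlcNAc is a single sugar that the transferase OGT places on serine and threonine residues of nuclear and cytosolic proteins and that the hydrolase OGA removes. 5SGlcNAc is taken up and converted in the cell to a nucleotide sugar analogue that inhibits OGT, and Thiamet-G inhibits OGA. The series title names NRF2, a transcription factor of the antioxidant and detoxification response, and KEAP1, the adaptor through which NRF2 is marked for degradation. NRF2 binds antioxidant response elements in the promoters of genes for glutathione synthesis, thioredoxin reduction, haem breakdown and NADPH supply.

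In all, 1225 of 11963 genes (10.2%) passed an adjusted p of 0.05 in limma, the linear model used throughout. Of the genes tested, 349 rose (2.92%) and 876 fell (7.32%). Most differences were small, and the median size among the genes that passed was 0.25 on the log2 scale for rises and 0.29 for falls. Only 75 genes (0.627%) passed and also differed by over 1.5-fold, 12 of them higher and 63 lower, and 4 rises and 7 falls were over 2-fold. The 12 count OGT, whose probe sets disagree in sign, by its brightest probe set. For 3737 genes (31.2%) the ranges of both groups were apart, 1524 higher and 2213 lower. Falls made up 71.5% of the genes that passed in the deposited values, 60.0% with quantile normalized arrays and 58.7% with arrays centred on their medians. Leaving out 1 array left 676 genes without 5SGlcNAc replicate 1, 748 without 5SGlcNAc replicate 2, 984 without 5SGlcNAc replicate 3, and 788, 719 and 813 without DMSO replicates 1, 2 and 3. The median difference over all genes was 0.01.

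**Figure D1:**
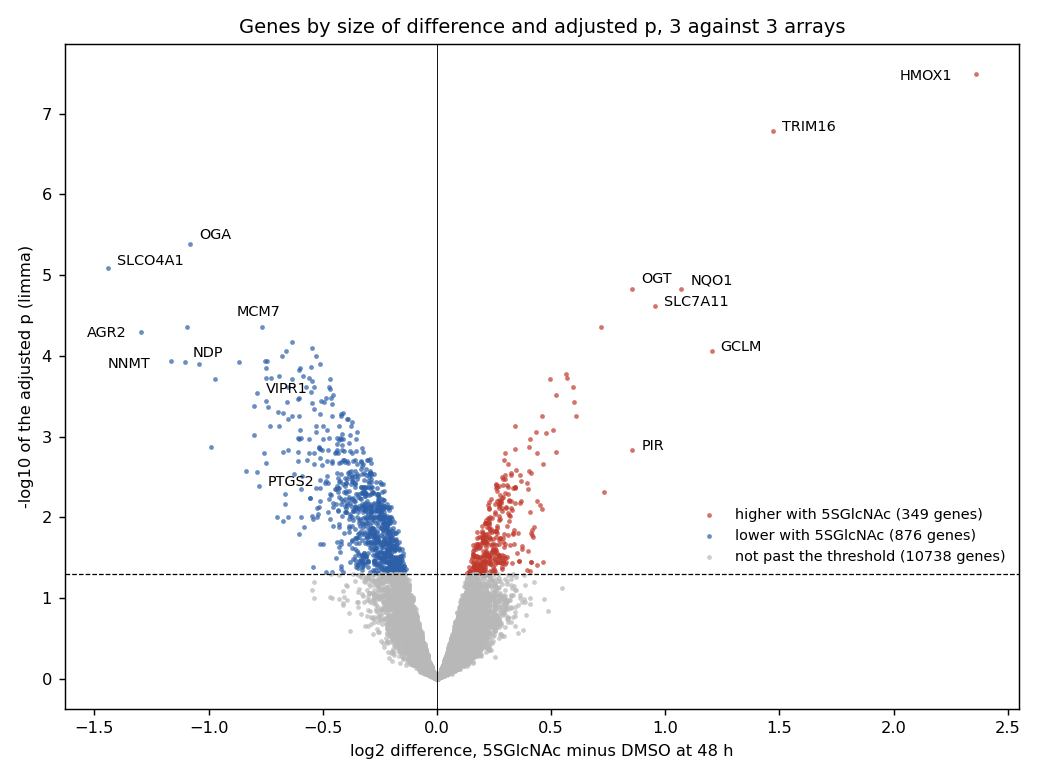
Each point is 1 of 11963 genes, with the log2 difference of 5SGlcNAc minus DMSO at 48 h on the x axis and minus log10 of the adjusted p on the y axis; the dashed line marks 0.05. HMOX1 and TRIM16 lie apart from the other rises, at 2.36 and 1.47, and falls outnumber rises by 876 to 349.

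Markers of the labelled line were bright on the arrays. All 11 markers of MDA-MB-231 cells measured here, such as vimentin (VIM) and AXL, lay above the median of every array, and their mean log2 level was 13.11 to 13.13 in 5SGlcNAc arrays and 13.24 to 13.29 in DMSO arrays. PTPRC, the pan-leukocyte marker, lay near the bottom of the scale at a mean log2 level of 4.15 in 5SGlcNAc arrays and 4.25 in DMSO arrays. All 9 haematopoietic markers had a mean level of 6.11 to 6.21 in 5SGlcNAc arrays and 6.13 to 6.27 in DMSO arrays. Of the 9, 1 lay above the highest array median, as did 8 of 16 luminal markers. Between treatments, 0 of 9 haematopoietic markers passed limma's test, and 1 had an unadjusted p under 0.05, beside 3049 of all 11963 genes. Of the 11 markers of MDA-MB-231 cells, PLAU and S100A4 fell (18.2%, beside 7.32% of all genes). Without overlap 6 of the 11 were lower and 0 higher, beside 2213 lower and 1524 higher of all 11963 genes. Of 16 markers of luminal epithelium 3 fell (18.8%), and of 13 fibroblast markers 3 fell (23.1%). The part of these shifts in the results was not tested. Array medians of all 9 arrays of 48 h were 7.68 to 7.76 and the lowest correlation between any pair of them was 0.9967. RNA integrity was read from the ACTB probe sets at both ends of the transcript, whose log2 difference (3' end minus 5' end) was 0.15 to 0.25 in 5SGlcNAc arrays and 0.22 to 0.33 in DMSO arrays, and its part in the results was not tested.

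The largest rises were genes of oxidative stress defence. HMOX1, which opens the haem ring, had log2 levels of 11.15, 11.05 and 11.12 in 5SGlcNAc cells, against 8.79, 8.76 and 8.69 in DMSO cells. The groups lay far apart, and HMOX1 rose 5.13-fold (log2 difference 2.36 ± 0.051 SE, adjusted p = 3.23e-08, limma). TRIM16, a TRIM family protein with roles in stress and damage responses, had log2 levels of 11.79, 11.86 and 11.80 with 5SGlcNAc, against 10.31, 10.36 and 10.37 with DMSO, a rise of 1.47 ± 0.041 (SE). GCLM, the modifier subunit of the enzyme that starts glutathione synthesis, measured 12.25, 12.37 and 12.27 in treated cells, against 11.11, 11.16 and 11.01 in DMSO cells. In each case every treated array exceeded every DMSO array. The largest rises and falls were picked among genes whose groups do not overlap, so this is no separate result.

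NQO1, a quinone reductase, measured 12.97, 12.95 and 12.92 with 5SGlcNAc and 11.79, 11.88 and 11.96 with DMSO. SLC7A11, the cystine carrier that supplies glutathione synthesis, measured 12.10, 12.04 and 11.99 with 5SGlcNAc, against a mean of 11.09 and a highest value of 11.16 with DMSO. Their differences were 1.07 and 0.95. PIR, an iron-binding nuclear protein, spread more, with 8.30, 8.01 and 8.43 in 5SGlcNAc cells and 7.31, 7.48 and 7.38 in DMSO cells. AKR1B10, an aldo-keto reductase, had 6.90, 6.94 and 6.97 in 5SGlcNAc cells, against 5.94, 6.18 and 6.50 in DMSO cells, so its DMSO arrays scattered most. TXNRD1, the cytosolic thioredoxin reductase, was the tightest of these genes, with 13.83, 13.80 and 13.76 in 5SGlcNAc cells and 13.09, 13.07 and 13.08 in DMSO cells.

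Across 62 measured NRF2 target genes of 74 listed, 28 rose, 1 fell and 33 did not pass (46.8% passed, beside 10.2% of all genes). The median log2 difference was 0.18 beside 0.01 over all genes. Leaving out 1 array left 21 to 23 rises. In each 5SGlcNAc array the median of the list lay 0.17 to 0.20 above the mean of the DMSO arrays, whose own arrays lay within -0.01 and 0.01. Glutathione and cystine genes gave 6 rises among 14, and besides GCLM and SLC7A11 these were GCLC (0.60), the reductase GSR (0.41), the transferase GSTM3 (0.29) and SLC3A2 (0.27), the partner of SLC7A11. The 3 rises among 5 thioredoxin genes were TXNRD1, TXN (0.19), which is thioredoxin, and PRDX1 (0.17), a peroxiredoxin. TXN gave 0.02 in its other probe set. With 1 array left out 1 or 2 genes of this group rose, fewest without 5SGlcNAc replicate 1 or any of the DMSO replicates. Of 12 quinone, aldo-keto and carbonyl reductases 8 rose, among them AKR1C3 (0.52), a steroid-reducing enzyme, AKR1C1 (0.40) and AKR1C2 (0.35), and 5 or 6 rose with 1 array left out, fewest without 5SGlcNAc replicate 2. The AKR1C genes are near-identical in sequence, so their probe sets may share signal, and the dimmest probe set of AKR1C1 gave -0.02. CBR3, a carbonyl reductase, was the 1 gene of the whole list that passed as a fall, by 0.25. It had 9.74, 9.73 and 9.74 in 5SGlcNAc cells against 9.96, 10.07 and 9.94 in DMSO cells.

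NADPH supply had 4 rises among 5 genes, and the member that did not pass differed by -0.23. With 1 array left out 3 rose and 0 or 1 fell. ME1, the cytosolic malic enzyme, had 11.27, 11.22 and 11.30 with 5SGlcNAc and 10.72, 10.75 and 10.61 with DMSO, a rise of 0.57, while its dimmest probe set gave -0.06. The pentose phosphate enzymes TKT (0.32), PGD (0.28) and TALDO1 (0.22) rose as well. Among 8 haem and iron genes HMOX1 and FTL, the ferritin light chain (0.34), rose and 6 did not pass. Among conjugation and efflux genes UGDH (0.31), which makes the donor for glucuronidation, and the transporter ABCC5 (0.24) rose, 2 of 7, and 1 or 2 rose with 1 array left out. SQSTM1, the autophagy receptor p62, rose by 0.48 and MAFG, a small MAF partner of NRF2, by 0.26. The regulators themselves did not pass, and NFE2L2, the gene of NRF2, differed by 0.01 ± 0.061 and KEAP1 by 0.09 ± 0.041 (SE; adjusted p = 0.938 and 0.193, limma).

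**Figure D2:**
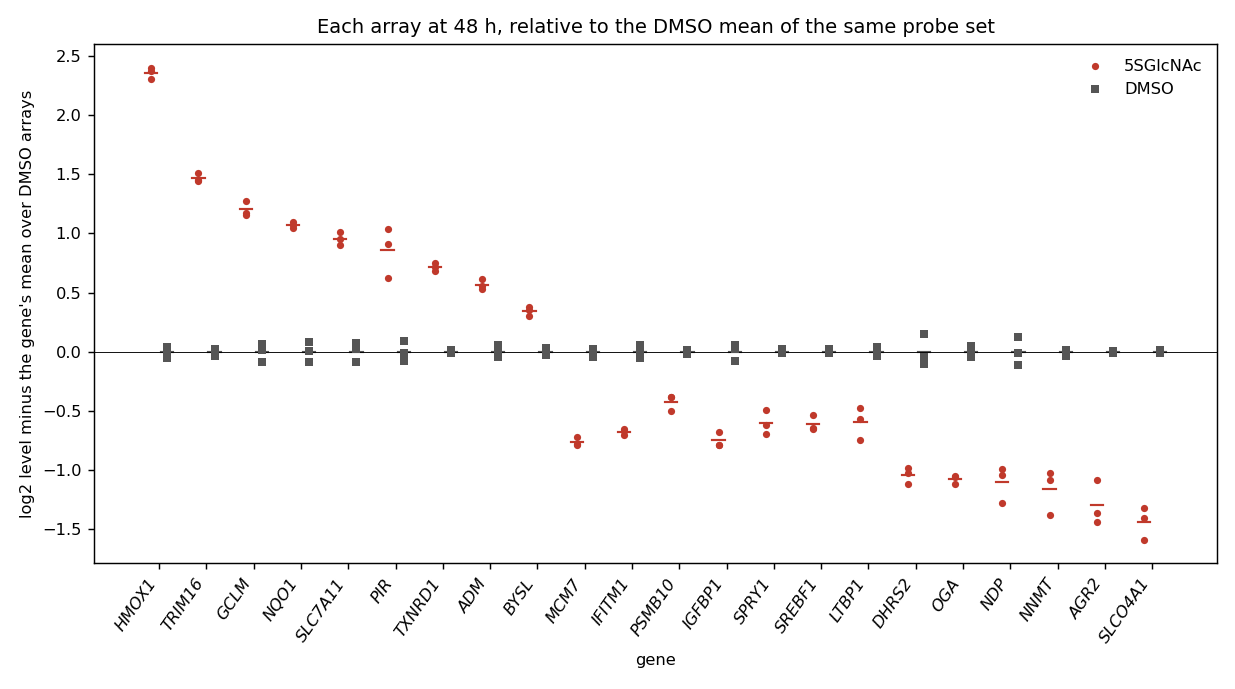
Each point is 1 array at 48 h, with its log2 level minus the mean of the 3 DMSO arrays of the same probe set on the y axis and 22 genes on the x axis; circles are 5SGlcNAc arrays, squares DMSO arrays and short lines group means. The genes run from HMOX1 at 2.36 to SLCO4A1 at -1.44, and those among the largest rises and falls were picked without overlap between groups.

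Promoter sequences of the genes with the core of the antioxidant response element are shown because NRF2 targets led the rises. They run from 250 bases before to 50 bases after the annotated start, as RefSeq gives them on GRCh38.p14, and capitals mark each match to TGACNNNGC on either strand. Apart from OGT, the 3 named genes with the largest rises among those that held a match are GCLM (chr1:93909381-93909680, minus strand), PIR (chrX:15493284-15493583, minus strand) and TXNRD1 (chr12:104215529-104215828, plus strand).
GCLM: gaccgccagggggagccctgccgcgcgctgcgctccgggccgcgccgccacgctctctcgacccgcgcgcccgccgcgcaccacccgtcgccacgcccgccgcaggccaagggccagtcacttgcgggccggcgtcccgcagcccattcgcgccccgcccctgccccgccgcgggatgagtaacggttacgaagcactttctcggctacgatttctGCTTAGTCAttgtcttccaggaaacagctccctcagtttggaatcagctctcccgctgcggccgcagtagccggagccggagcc
PIR: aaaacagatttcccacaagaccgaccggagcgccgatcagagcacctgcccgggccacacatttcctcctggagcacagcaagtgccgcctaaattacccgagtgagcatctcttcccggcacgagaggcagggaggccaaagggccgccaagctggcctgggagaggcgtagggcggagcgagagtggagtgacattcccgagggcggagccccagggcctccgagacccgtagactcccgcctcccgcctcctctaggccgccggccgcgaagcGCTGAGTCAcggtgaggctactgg
TXNRD1: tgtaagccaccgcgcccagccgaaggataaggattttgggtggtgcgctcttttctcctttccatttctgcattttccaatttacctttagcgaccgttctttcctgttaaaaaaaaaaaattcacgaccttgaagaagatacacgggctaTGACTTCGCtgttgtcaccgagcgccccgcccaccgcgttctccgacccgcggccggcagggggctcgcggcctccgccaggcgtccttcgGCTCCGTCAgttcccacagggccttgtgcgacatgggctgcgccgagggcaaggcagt
The match lies 34 bases before the start in GCLM, just past the start in PIR, and 99 and 8 bases before it in TXNRD1. Among other large rises, TRIM16, NQO1 and GCLC held no match in this stretch, and no promoter was available for HMOX1 and SLC7A11. Of the genes tested, 9562 had a promoter in the table and 14.9% of these held a match. Among rises over 1.5-fold 4 of 8 promoters did without OGT (50.0%) and 5 of 9 with it (55.6%), and among falls over 1.5-fold 7.41% of 54. Within the NRF2 list the share was 30.4% of 23 for genes that rose and 30.8% of 26 for genes that did not pass, which is nearly the same share.

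Further rises lay outside these groups. MAP3K14, the NF-kB inducing kinase, had 9.22, 9.11 and 9.21 in 5SGlcNAc cells against 8.50, 8.54 and 8.67 in DMSO cells, a rise of 0.61. UNKL had 9.25, 9.14 and 9.17 with 5SGlcNAc and 8.56, 8.56 and 8.65 with DMSO. ADM, the peptide adrenomedullin, had 12.27, 12.18 and 12.21 with 5SGlcNAc and 11.61, 11.71 and 11.64 with DMSO. Each of the 3 genes was higher in every treated array, as their choice required. GADD45A, a stress and growth arrest gene, rose by 0.35, KLHL21, a cullin adaptor, by 0.41, and PFN2, a profilin that binds actin, by 0.37.

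OGA and OGT, the genes of O-GlcNAc cycling, were both past the threshold in their brightest probe sets. OGA had log2 levels of 9.85, 9.91 and 9.92 with 5SGlcNAc and 10.93, 11.02 and 10.97 with DMSO, so it fell to 0.473 of the DMSO level, and its dimmest of 3 probe sets gave 0.08. OGT gave opposite answers by probe set, with 0.86 in the brightest, and -1.70, 0.02, -1.40 and 0.06 in the others in falling order of brightness. No direction is therefore given for OGT messenger RNA. With Thiamet-G, set against the same DMSO arrays, OGA differed by 0.62 and HMOX1 by -0.05.

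Genes of ribosome biogenesis process ribosomal RNA and assemble the subunits in the nucleolus. Among 47 of them 17 rose (36.2%, beside 2.92% of all genes) and none fell, with a median of 0.14. The count was 8 to 12 with 1 array left out, lowest without 5SGlcNAc replicate 1, and 21 and 23 after quantile normalization and median centring. BYSL, which acts in small subunit assembly, had 12.06, 11.98 and 12.03 in 5SGlcNAc cells against 11.65, 11.68 and 11.71 in DMSO cells. NOL6 (0.32), PNO1 (0.32, with 0.07 in its other probe set), EMG1 (0.31), a methyltransferase of ribosomal RNA, and BYSL (0.34) led the list. Of the proteins of the ribosome itself, 0 of 57 cytosolic ribosomal protein genes passed, with a median of -0.003 that was 0.02 after median centring. In limma 2 of the 57 had an unadjusted p under 0.05, beside 3049 of all 11963 genes. With a trended and robust variance 0 of the 57 passed, beside 1794 of all genes. Of 51 genes of the mitochondrial ribosome 1 rose, MRPS30 (0.17, with -0.02 in its other probe set).

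Proteasome genes divided by type. Of 33 subunits of the standard proteasome 6 rose (18.2%, beside 2.92% of all genes) and none fell, with a median of 0.08. PSMD4 (0.19) and PSMD11 (0.18), both of the regulatory particle, led them. PSMD4 had 12.66, 12.66 and 12.68 with 5SGlcNAc and 12.43, 12.47 and 12.52 with DMSO. With 1 array left out 0 or 1 of these genes rose, 1 without DMSO replicate 2 or DMSO replicate 3 and 0 without any other. In contrast, 4 of 13 genes of the immunoproteasome and MHC class I antigen presentation fell (30.8%, beside 7.32% of all genes) and none rose. PSMB10, a catalytic subunit of the immunoproteasome, had 8.74, 8.62 and 8.74 in 5SGlcNAc cells against 9.10, 9.14 and 9.13 in DMSO cells. PSMB9 (-0.39) and PSMB8 (-0.36), the other catalytic subunits, fell as well. So did TAPBP (-0.32, with -0.04 in its other probe set), which loads peptides on MHC class I. This count was 4 in every fit that left out 1 array. Whether the 2 kinds of proteasome gene differ from each other was not tested. Among 26 heat shock genes CHORDC1 (0.26), FKBP4 (0.23) and DNAJA1 (0.18, with 0.05 in its other probe set) rose (11.5%, beside 2.92% of all genes). With 1 array left out 1 to 3 rose, fewest without 5SGlcNAc replicates 1 or 2 or DMSO replicate 2. With Thiamet-G, against the same DMSO arrays, CHORDC1 differed by 0.27. Among 24 ER chaperone and unfolded protein response genes 4 fell and 2 rose (25.0% passed, beside 10.2% of all genes). With 1 array left out 0 or 1 rose. HSP90B1 (-0.36), the ER form of HSP90, led the falls, with -0.06 in its other probe set.

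The largest falls came from unrelated families. SLCO4A1, an organic anion transporter, had 9.89, 10.16 and 10.07 with 5SGlcNAc and 11.48, 11.49 and 11.47 with DMSO, and fell to 0.369 of the DMSO level (-1.44 ± 0.066 SE, adjusted p = 8.20e-06, limma). AGR2, a disulfide isomerase of secretory cells, had 7.92, 7.84 and 8.20 with 5SGlcNAc and 9.29, 9.27 and 9.29 with DMSO. NNMT, which methylates nicotinamide, had 9.18, 9.48 and 9.54 with 5SGlcNAc and 10.58, 10.58 and 10.53 with DMSO. In all 3 genes the treated arrays scattered more than the DMSO arrays. With Thiamet-G these genes differed from the shared DMSO arrays by 0.07, 0.17 and 0.17.

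NDP, the secreted ligand norrin, had 5.15, 4.91 and 5.20 in 5SGlcNAc cells and 6.08, 6.31 and 6.18 in DMSO cells. DHRS2, a short-chain reductase, had 8.06, 8.16 and 8.20 in 5SGlcNAc cells and 9.08, 9.33 and 9.14 in DMSO cells, with -0.35 in its second probe set. LIPG, endothelial lipase, had 6.57, 6.32 and 6.73 in 5SGlcNAc cells and 7.41, 7.62 and 7.56 in DMSO cells. All 3 fell, with log2 differences of -1.10, -1.04 and -0.99. PAPPA, a protease that cleaves IGF binding proteins, fell by 0.97 in its brighter probe set and differed by -0.17 in the other. ICAM4, an adhesion molecule, fell by 0.87, the cytokine TNFSF15 by 0.84, GCA, a calcium-binding protein known from granulocytes, by 0.80, SAMSN1 by 0.79 and VIPR1, a receptor for vasoactive intestinal peptide, by 0.79. PDE4B, a cAMP phosphodiesterase, fell by 0.80, with -0.20 and 0.01 in its dimmer probe sets. APOBEC3G fell by 1.09, but its other probe set differed by -0.02 and became the one used when the fit held the 6 arrays alone.

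**Figure D3:**
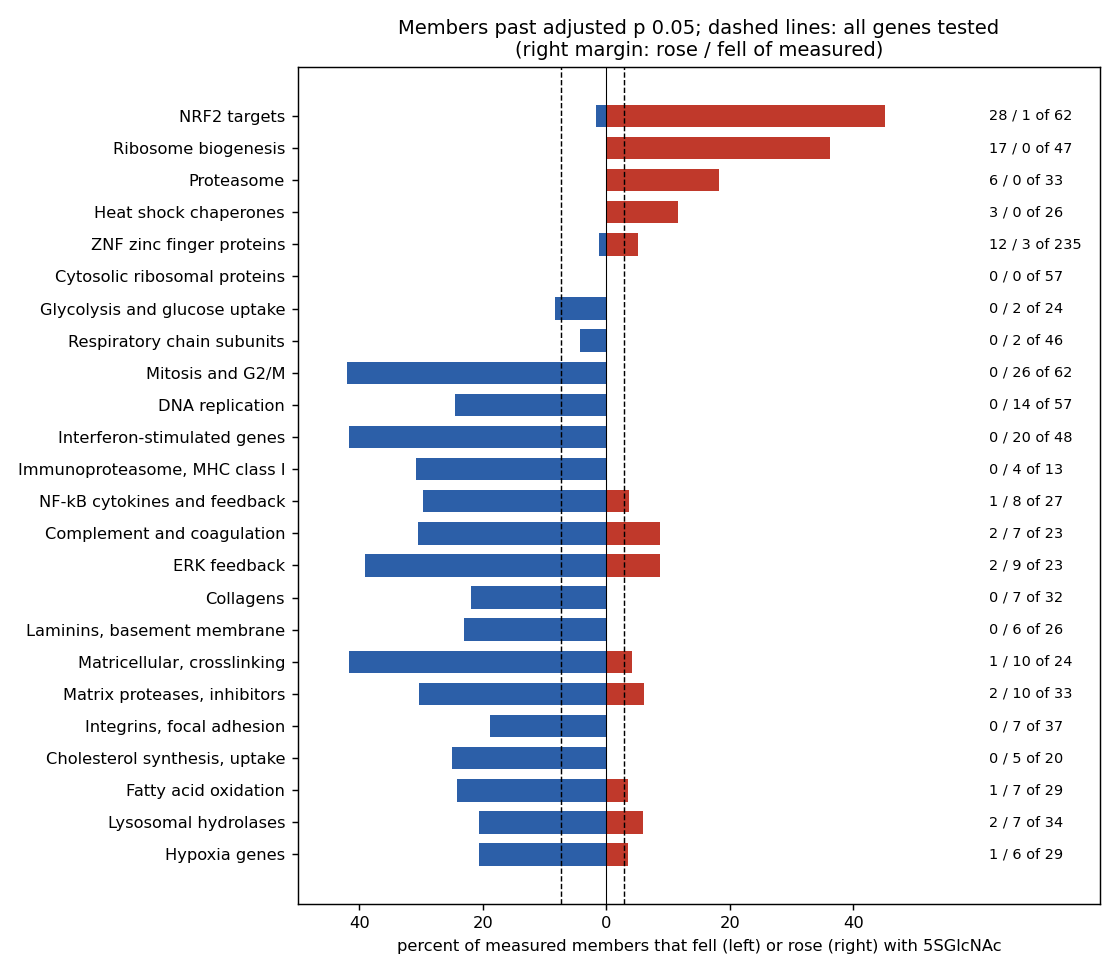
Bars give the percent of measured members of 24 gene lists that rose with 5SGlcNAc, to the right, or fell, to the left, at an adjusted p under 0.05; dashed lines mark 2.92% and 7.32% of all genes, and the right margin gives rises, falls and members. NRF2 targets and ribosome biogenesis reach furthest right, and mitosis, interferon and matricellular genes furthest left.

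Interferon-stimulated genes were among the falls. Of 48 measured genes of this antiviral program 20 fell (41.7%, beside 7.32% of all genes) and none rose, with a median of -0.13. With 1 array left out 11 to 20 fell, lowest without DMSO replicate 2. IFITM1, a membrane protein that blocks viral entry, had 9.68, 9.71 and 9.73 with 5SGlcNAc and 10.38, 10.33 and 10.44 with DMSO. IRF7, a transcription factor of the response, had 9.06, 9.10 and 9.19 with 5SGlcNAc and 9.54, 9.56 and 9.63 with DMSO. DDX60, a helicase of RNA sensing, had 7.05, 7.24 and 7.36 with 5SGlcNAc and 7.68, 7.79 and 7.58 with DMSO. None of the 3 genes overlapped between groups, beside 31.2% of all genes without overlap. IFITM1 and DDX60 were picked by size of change and IRF7 after its values were seen, so this is no separate result. TRIM22 fell by 0.54, a value that was -0.36 without 5SGlcNAc replicate 2, and that passed, with 1 array left out, only without 5SGlcNAc replicate 3. In the APOBEC3 family of cytidine deaminases, which restrict viruses, APOBEC3B (-0.63) and APOBEC3C (-0.35) fell beside the divided result of APOBEC3G. With Thiamet-G, against the same DMSO arrays, IRF7 differed by -0.28 and the median of the interferon list was 0.07.

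Promoters of 3 of these genes are shown for the interferon response motif GAAANNGAA, with matches on either strand in capitals. They were chosen after their values were seen, and lie at chr11:313790-314089 (plus strand), chr4:168318703-168319002 (minus strand) and chr10:89327747-89328046 (plus strand) of GRCh38.p14 in RefSeq.
IFITM1: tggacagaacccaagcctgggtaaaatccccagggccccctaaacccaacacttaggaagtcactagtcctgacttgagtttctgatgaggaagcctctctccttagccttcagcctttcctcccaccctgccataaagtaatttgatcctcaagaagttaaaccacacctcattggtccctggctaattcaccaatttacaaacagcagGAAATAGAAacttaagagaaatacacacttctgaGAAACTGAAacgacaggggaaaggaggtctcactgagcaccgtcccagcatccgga
DDX60: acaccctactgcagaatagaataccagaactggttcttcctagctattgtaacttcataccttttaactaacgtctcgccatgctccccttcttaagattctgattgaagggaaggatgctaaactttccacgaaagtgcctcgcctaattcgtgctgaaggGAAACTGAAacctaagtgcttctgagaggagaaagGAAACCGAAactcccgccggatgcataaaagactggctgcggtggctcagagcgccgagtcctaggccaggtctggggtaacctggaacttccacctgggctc
IFIT3: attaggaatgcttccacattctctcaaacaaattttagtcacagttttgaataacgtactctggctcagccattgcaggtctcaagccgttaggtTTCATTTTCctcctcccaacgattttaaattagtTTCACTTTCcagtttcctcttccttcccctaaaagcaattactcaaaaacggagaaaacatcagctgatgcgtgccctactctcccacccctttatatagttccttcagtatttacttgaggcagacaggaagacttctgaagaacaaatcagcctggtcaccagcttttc
IFITM1 holds matches 40 and 6 bases before the start, DDX60 88 and 53 bases before it, and IFIT3 155 and 121 bases before it. The motif was present in 6.85% of promoters of genes tested and in 10 of 14 interferon-stimulated genes that fell (71.4%). It was also present in 15 of 24 members that did not pass (62.5%). Among rises over 1.5-fold it was found in 2 of 9 promoters (22.2%; 2 of 8 without OGT), and among falls over 1.5-fold in 20.4% of 54.

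Inflammatory genes fell in part. Of 27 NF-kB driven cytokine and feedback genes 8 fell and 1 rose (33.3% passed, beside 10.2% of all genes). The median was -0.08, and 8 fell in every fit without 1 array. PTGS2, the inducible cyclooxygenase, had 6.78, 6.84 and 6.66 in 5SGlcNAc cells and 7.52, 7.56 and 7.54 in DMSO cells. The chemokine CXCL2 had 7.38, 7.44 and 7.60 in 5SGlcNAc cells and 8.22, 8.21 and 8.24 in DMSO cells. CXCL8, the neutrophil chemokine IL-8, had 9.02, 8.98 and 8.98 in 5SGlcNAc cells and 9.55, 9.52 and 9.74 in DMSO cells. The treated arrays of all 3 genes lay below every DMSO array. These genes were picked by size of change, so this is no separate result. CXCL1 fell by 0.65. IL11, a cytokine of the IL-6 family, ran against its list and rose by 0.27, and its other probe set gave 0.03. Without 5SGlcNAc replicate 1 IL11 differed by 0.29 and did not pass. The NF-kB motif GGGNNTTTC was found in 11.1% of promoters of genes that fell over 1.5-fold, in 1 of 9 of those that rose over 1.5-fold (11.1%), and in 4.89% of all genes tested. Among 23 complement and coagulation genes 7 fell and 2 rose (39.1% passed). The urokinase PLAU (-0.55), thrombomodulin THBD (-0.49) and the plasminogen activator PLAT (-0.43) led the falls. The protease inhibitor SERPINE2 (0.29) was the larger rise.

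Genes of the extracellular matrix were lower across several lists. Of 32 collagen genes 7 fell (21.9%, beside 7.32% of all genes) and none rose, with a median of -0.10. COL6A3 had 7.57, 7.89 and 7.70 with 5SGlcNAc and 8.41, 8.51 and 8.46 with DMSO. With Thiamet-G, against the same DMSO arrays, COL6A3 differed by -0.36. COL4A5, a basement membrane chain, and the fibrillar COL5A1 fell by 0.65 and 0.44 with 5SGlcNAc. Of 26 laminin and basement membrane genes 6 fell (23.1%) and none rose. LTBP1, which stores latent TGF-beta in the matrix, had 9.44, 9.61 and 9.71 with 5SGlcNAc and 10.22, 10.15 and 10.18 with DMSO, and the laminin chains LAMB1 and LAMA5 fell by 0.43 and 0.41. LTBP4 fell by 0.39, with 0.04 in a dimmer probe set. Since COL6A3, COL5A1 and LUM also belong to the fibroblast list, the mean level of all 13 fibroblast markers bears on these counts, and it was 6.50 to 6.64 in 5SGlcNAc arrays and 6.60 to 6.66 in DMSO arrays. In RNA of whole cultures, fewer cells of a type and less RNA per cell cannot be told apart.

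Matricellular and crosslinking genes gave 10 falls and 1 rise among 24 (45.8% passed, beside 10.2% of all genes). When 1 array was left out 4 to 8 fell, fewest without 5SGlcNAc replicate 1. TNC, tenascin C, had 9.33, 9.56 and 9.30 in 5SGlcNAc cells and 9.98, 10.02 and 9.87 in DMSO cells. LOX, which crosslinks collagen, had 9.74, 9.84 and 9.86 in 5SGlcNAc cells and 10.26, 10.32 and 10.17 in DMSO cells. TGM2, a transglutaminase, fell by 0.44 with 0.09 in its dimmest probe set, and LUM fell by 0.49. CCN2, the connective tissue growth factor, was the 1 rise, by 0.26, and did not pass without 5SGlcNAc replicate 1, where it differed by 0.25. Among 33 matrix proteases and inhibitors 10 fell and 2 rose (36.4% passed). ADAM8 fell by 0.56 and PLAU by 0.55, and the metalloprotease inhibitors TIMP4 and TIMP3 fell by 0.53 and 0.51, so both proteases and inhibitors had members that fell. The gelatinase MMP2 rose, with 6.86, 6.76 and 6.80 in 5SGlcNAc cells against 6.58, 6.37 and 6.52 in DMSO cells, and ADAMTS1 rose by 0.25. Neither passed without 5SGlcNAc replicate 1, where MMP2 differed by 0.29 and ADAMTS1 by 0.22. With Thiamet-G, against the same DMSO arrays, ADAMTS1 differed by 0.46.

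Adhesion and surface genes added smaller falls. Of 37 integrin and focal adhesion genes 7 fell (18.9%, beside 7.32% of all genes), including ITGA10 (-0.34) and ITGA3 (-0.33). The count was 4 to 6 with 1 array left out, fewest without 5SGlcNAc replicate 1 or DMSO replicate 1. Of 19 genes of tight junctions, desmosomes and epithelial cadherin 4 fell (21.1%), among them CLDN7 (-0.48), JUP (-0.37) and CDH1 (-0.29). CDH1 was dim, with mean levels of 6.07 with 5SGlcNAc and 6.36 with DMSO, and its other probe set gave -0.14. In this list 2 to 4 genes fell with 1 array left out, fewest without 5SGlcNAc replicate 2. In the mesenchymal list S100A4 (-0.54) and CDH11 (-0.41) fell, so markers of both states had members that fell. The mean level of the 16 luminal markers was 8.30 to 8.33 in 5SGlcNAc arrays and 8.44 to 8.49 in DMSO arrays. Of 29 annexin and S100 genes 7 fell (24.1%). With 1 array left out 4 to 8 fell, fewest without 5SGlcNAc replicate 1 or DMSO replicate 2. S100A2 had 9.80, 9.96 and 10.10 in 5SGlcNAc cells against 10.62, 10.63 and 10.57 in DMSO cells. Of 52 Rab GTPases of vesicle traffic 8 fell, led by the secretory RAB27A (-0.46) and RAB27B (-0.43), and 3 to 8 fell with 1 array left out, fewest without 5SGlcNAc replicate 1 or DMSO replicates 2 or 3.

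Secreted growth factors and their feedback genes were also affected. IGFBP1, an IGF binding protein, had 10.54, 10.65 and 10.54 with 5SGlcNAc and 11.38, 11.35 and 11.25 with DMSO. It led 7 falls among 46 growth factor and receptor genes, with IGFBP4 (-0.61) and the angiogenic factor VEGFA (-0.60). Of this list 17.4% passed in either direction, beside 10.2% of all genes. With 1 array left out 4 or 5 fell, fewest without 5SGlcNAc replicates 2 or 3 or DMSO replicates 1 or 2. With Thiamet-G, against the same DMSO arrays, IGFBP1 differed by 0.37. Of 23 feedback genes of the ERK pathway 9 fell and 2 rose (47.8% passed), and 8 or 9 fell in every fit without 1 array. SPRY1, an inhibitor of receptor signalling, had 9.68, 9.61 and 9.81 with 5SGlcNAc and 10.29, 10.29 and 10.33 with DMSO. DUSP4, a nuclear MAP kinase phosphatase, had 11.90, 11.95 and 11.97 with 5SGlcNAc and 12.47, 12.38 and 12.39 with DMSO. The ETS factor ETV1 fell by 0.60. The immediate early genes DUSP1 (0.22) and EGR1 (0.21, with 0.06 in its other probe set) ran against this list and rose. Neither passed when 5SGlcNAc replicate 1 was left out, where DUSP1 differed by 0.22 and EGR1 by 0.17. Of 29 hypoxia genes 6 fell, led by DDIT4 (-0.69), an inhibitor of mTOR signalling, and the secreted STC1 (-0.63), whereas ADM of the same list rose. Of the hypoxia list 24.1% passed. GDF15, a stress cytokine, fell by 0.59 in its brighter probe set and differed by 0.11 in the other.

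Genes of cell division were among the falls, mostly by small amounts. Of 57 DNA replication genes 14 fell (24.6%, beside 7.32% of all genes) and none rose, with a median of -0.10. With 1 array left out 8 to 11 fell, fewest without DMSO replicate 2. MCM7, a subunit of the replicative helicase, had 10.52, 10.53 and 10.59 in 5SGlcNAc cells and 11.27, 11.33 and 11.34 in DMSO cells, the largest fall of the list. TK1, thymidine kinase, had 10.11, 10.10 and 10.02 in 5SGlcNAc cells and 10.55, 10.52 and 10.57 in DMSO cells, and the ligase LIG1 fell by 0.40. Of 62 genes of mitosis 26 fell (41.9%) and none rose, with a median of -0.16. MYBL2, a transcription factor of the cell cycle, fell by 0.40, the centromere protein CENPM by 0.39 and the lamin LMNB1 by 0.34. This count depended on the settings, with 20 falls after quantile normalization, 12 after median centring and 8 to 15 with 1 array left out, fewest without 5SGlcNAc replicate 1, while the median was -0.14 under both scalings. Of 20 genes of G1 cyclins and inhibitors 5 fell (25.0%), led by CCNG2 (-0.61), a cyclin linked to arrest. Of 51 DNA repair genes 6 fell (11.8%, beside 7.32% of all genes), among them the helicases RECQL (-0.54) and BRIP1 (-0.50). Under either scaling 4 repair genes fell, and 4 to 6 did with 1 array left out. An E2F motif, TTTGGCGC or TTTCGCGC on either strand, was found in 4 of 11 promoters of replication genes that fell (36.4%), in 8 of 39 of those that did not pass (20.5%) and in 1.83% of all genes tested.

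Some lipid genes fell on both the synthetic and the oxidative side. SREBF1, the regulator of fatty acid synthesis, had 8.96, 8.95 and 9.07 with 5SGlcNAc and 9.63, 9.59 and 9.59 with DMSO. The desaturase SCD fell by 0.34, and of 20 cholesterol genes 5 fell (25.0%, beside 7.32% of all genes). Among them were the sterol sensor partner INSIG1 (-0.49), the synthase HMGCS1 (-0.47) and the exporter ABCA1 (-0.59, with 0.06 in its dimmest probe set). With 1 array left out 3 to 5 fell, fewest without 5SGlcNAc replicate 1. Of 29 genes of fatty acid oxidation and peroxisomes 7 fell, such as ECI1 (-0.28) and HADH (-0.25). Of this list 27.6% passed in either direction, beside 10.2% of all genes. With 1 array left out 2 to 5 fell, fewest without 5SGlcNAc replicate 2. CPT1A, which brings fatty acids into mitochondria, rose by 0.21 in its brightest probe set, with -0.04 in its second. In central carbon metabolism 2 genes fell and none rose among 24 glycolysis genes (8.33%), 24 genes of the TCA cycle (8.33%) and 46 respiratory chain genes (4.35%), beside 7.32% that fell among all genes. IDH2 (-0.48) was the larger fall of the TCA cycle. These counts were 1 to 3 in glycolysis, 1 in the respiratory chain and 1 or 2 in the TCA cycle with 1 array left out. TXNIP, an arrestin that binds thioredoxin and limits glucose uptake, fell by 0.21. In nicotinamide metabolism NMNAT2 (-0.41), which makes NAD, and NNT (-0.39), which makes mitochondrial NADPH, fell beside NNMT. Lysosomal hydrolases divided, as the protease CTSL (0.44) and the galactosidase GLA (0.43) rose and 7 of 34 fell. Together 26.5% of the list passed, beside 10.2% of all genes. The protease CTSZ led the falls (-0.51), with -0.02 in its other probe set.

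Glycosylation genes outside O-GlcNAc cycling passed at shares of 9.52% to 17.9% by list, beside 10.2% of all genes. Of 29 genes of N-glycan assembly 1 rose and 2 fell (10.3%), among them FUT8 (-0.29), which adds core fucose, and of 21 genes of mucin-type glycans and sialylation 2 fell (9.52%). GALNT6, which starts mucin-type glycans, had 9.30, 9.31 and 9.38 in 5SGlcNAc cells and 9.86 in each of the 3 DMSO arrays. Of 28 proteoglycan genes 5 fell as deposited (17.9%), led by CSGALNACT1 (-0.58), but 2 after quantile normalization, 1 after median centring and 0 to 3 with 1 array left out, fewest without 5SGlcNAc replicate 1. GNE, which starts sialic acid synthesis, fell by 0.22.

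Several groups gave no call at all. None of 44 genes of nuclear transport and the pore, whose proteins carry much O-GlcNAc, passed the threshold, and neither did any of 31 splicing kinases and SR proteins or of 16 aminoacyl-tRNA synthetases. In limma, unadjusted p was under 0.05 for 4 of the 44, 3 of the 31 and 4 of the 16 genes, beside 3049 of all 11963. With a trended and robust variance 2, 3 and 3 genes of these lists passed, beside 1794 of all genes. A miss of the threshold does not show that levels were equal. Of 32 polycomb, TET, SIN3 and other chromatin partners of OGT, 6.25% passed, beside 10.2% of all genes. EZH1, a histone methyltransferase, rose by 0.29 and ASH2L, a subunit of MLL methyltransferase complexes, fell by 0.15. ASH2L did not pass with any 1 array left out or after median centring. Among 45 histone genes 4 rose and 2 fell (13.3%), with H2BC6 (0.27) and the linker histone H1-10 (-0.51) the largest in each direction. With 1 array left out 1 or 2 histone genes rose.

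Differences between the single arrays of 0 to 24 h followed those of 48 h most closely at 24 h. Over the 1225 genes that passed at 48 h, their 48 h difference correlated with the difference between single arrays at r = 0.12 at 0 h, 0.03 at 2 h, 0.05 at 4 h, -0.03 at 6 h, 0.04 at 8 h and 0.72 at 24 h. Over all 11963 genes r was 0.12, -0.01, 0.06, 0.05, -0.11 and 0.47 at the same times. The points are genes and not replicates, and 24 h and 48 h share no array. At 24 h, 91.3% of the genes that later fell were negative, beside 58.0% of all genes, and 67.9% of the genes that later rose were positive, beside 42.0% of all genes. The 11 rises over 1.5-fold other than OGT were all positive at 24 h and 92.1% of the falls over 1.5-fold were negative. Each of these values rests on 1 array per treatment and has no test.

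**Figure D4:**
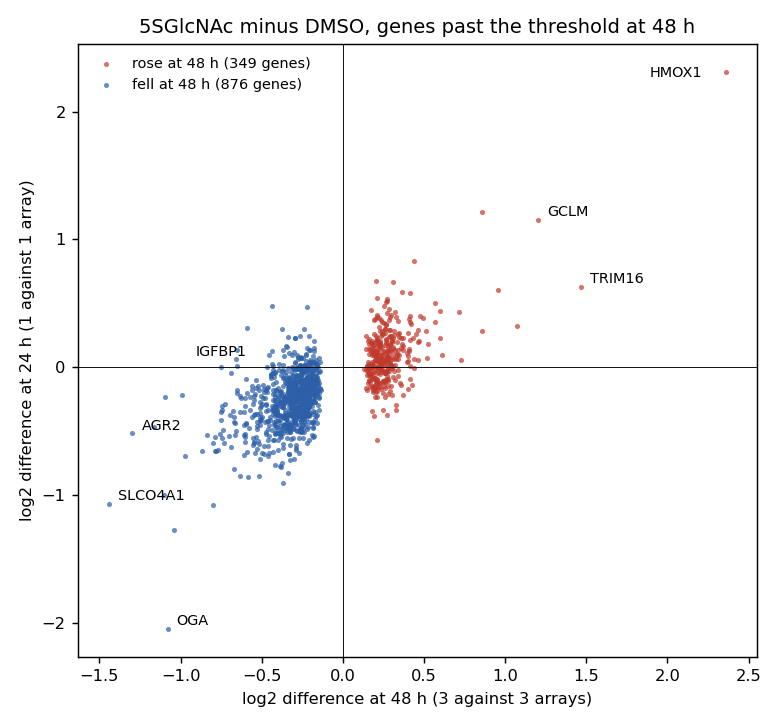
Each point is 1 of the 1225 genes past the threshold at 48 h, with its log2 difference of 5SGlcNAc minus DMSO at 48 h on the x axis and the difference of 2 single arrays at 24 h on the y axis. Falls lie mostly below 0 at 24 h (91.3%), rises are split more evenly (67.9% above 0), and r is 0.72 over these genes and 0.47 over all genes.

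Genes differed in how far they had moved by 24 h. HMOX1 stood at 2.31 at 24 h, close to its 2.36 at 48 h, and at 0.30 at 8 h. GCLM stood at 1.16 at 24 h, while NQO1 stood at 0.32 beside 1.07 at 48 h and TRIM16 at 0.63 beside 1.47. OGA stood at -0.61 at 6 h, -0.91 at 8 h and -2.05 at 24 h, beyond its -1.08 at 48 h. SLCO4A1 was at 0.12 at 8 h and -1.07 at 24 h, and DHRS2 at -0.37 at 8 h and -1.27 at 24 h. Lists differed likewise. At 24 h 51 of 57 replication genes and 52 of 62 mitosis genes were negative, with medians of -0.18 and -0.15 beside -0.04 over all genes, and 38 of 48 interferon genes were negative with a median of -0.10. Ribosome biogenesis, with 17 rises at 48 h, had 21 of 47 genes above 0 at 24 h and a median of -0.01, and the standard proteasome had 8 of 33 above 0. Collagens, with 7 falls at 48 h, had 17 of 32 above 0 at 24 h.

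**Figure D5:**
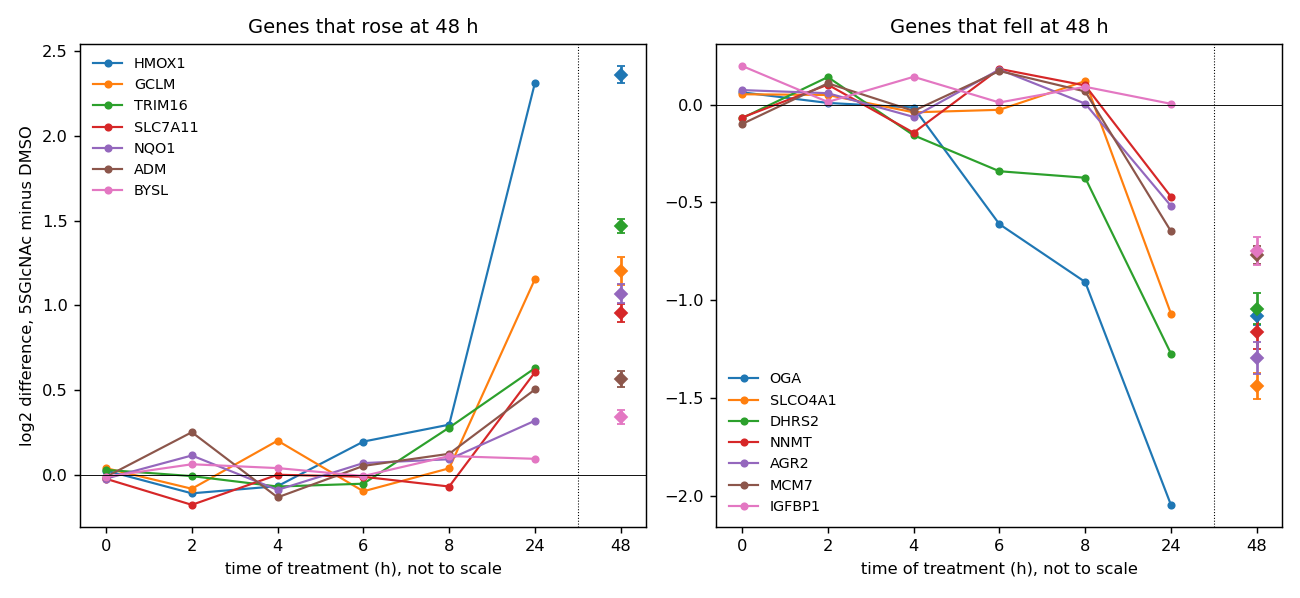
Lines give the log2 difference of 5SGlcNAc minus DMSO between single arrays at 0 to 24 h, and diamonds the 48 h difference with its standard error (3 against 3 arrays), for 7 genes that rose and 7 that fell; the dotted line divides 2 separately normalized sets of arrays. OGA stands at -0.61 at 6 h, most others move between 8 and 24 h, and IGFBP1 is still at 0.00 at 24 h.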

How the data were processed

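The values were log2 signals per probe set, deposited after RMA with no version given, per the submitters' processing notes, in 1 table for 48 h and 1 for 0 to 24 h. RMA subtracts background, equalises the distributions of the arrays and summarises probes, so shifts shared by all genes are not seen, and low signals are compressed. Genome build and probe set annotation version are not given in the sources used here. Of 22277 probe sets, 62 were controls, 19064 named 1 gene, 1043 several and 2108 none, and 19052 were matched to current symbols by Entrez ID. The brightest probe set by mean level stood for each of 11963 genes, 4310 of which had more than 1. Levels are compared within a probe set only.

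Differences of 5SGlcNAc minus DMSO were fitted with limma 3.58.1 in R 4.3.3 over the 9 arrays of 48 h, with Benjamini-Hochberg adjustment over all genes, 6 residual degrees of freedom and a median SE of 0.0615. The number of arrays limits the precision. Checks on simulated data preceded the fits. Nothing ties replicate numbers across groups, and the deviations of same-numbered arrays correlated at 0.06, -0.12 and -0.02, so the arrays were not paired.

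Named genes were the 15 largest rises and 15 largest falls without overlap, up to 4 members of each list, fixed regulators, and members that ran against their list; IRF7, GSTM3, AKR1C1 and AKR1C2 were chosen after their values were seen. The members and the lists were chosen with earlier results of these data known. Alternatives were the mean of probe sets, median centring, quantile normalization, the 6 arrays alone, a replicate block, a trended and robust variance, removal of dim or _x_at probe sets, and each array left out. Promoters came from RefSeq on GRCh38.p14. Thiamet-G values share the DMSO arrays and are given only side by side.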

Additional observations from a re-analysis of the deposited data

Results flagged for a closer look

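For 3 genes that fell at 48 h, the single arrays of 2, 4, 6, 8 and 24 h all put 5SGlcNAc above DMSO. CXCL1, a neutrophil chemokine, differed by -0.65 at 48 h and by 0.01 at 24 h. IGFBP1, an IGF binding protein, differed by -0.75 at 48 h and by 0.00 at 24 h. NDUFB1, a subunit of respiratory complex I, differed by -0.15 at 48 h and by 0.00 at 24 h. The difference between times was not tested, since the earlier times have 1 array per treatment, and many of their values lie near 0.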

How the results depend on the processing

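Leaving out 1 array gave 676 to 984 genes past the threshold, 150 to 241 of them higher and 526 to 743 lower, as fewer arrays were fitted. With a replicate block 895 genes passed, 219 higher and 676 lower, and with a trended and robust variance 1794 passed, 550 higher and 1244 lower. The other settings gave 1146 to 1727 genes. Signs turned for 5 named genes whose probe sets disagree. Without _x_at probe sets GDF15 differed by 0.11, LTBP4 by 0.04 and AKR1C1 by -0.023, and with the mean of probe sets OGT differed by -0.43 and SMAD6 by 0.0083. APOBEC3G differed by -0.02 with the 6 arrays alone, where its other probe set was the brighter. Of 276 named genes past the threshold, 241 kept sign and call with the mean of probe sets, 260 after median centring, 261 after quantile normalization, 259 with 6 arrays, 228 with the replicate block, 276 with a trended and robust variance and 195 to 233 with 1 array left out. Small differences rest on few arrays, and dim probe sets near background understate change.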

Other observations

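In the ZNF, solute carrier, tyrosine phosphatase and tetraspanin lists, the share of members past the threshold was 6.38% to 23.8%, beside 10.2% of all genes. Lists not described in this report lay on both sides of that range, such as keratins (3.12%) and glucocorticoid receptor targets (46.7%). Of 235 genes with ZNF symbols, most of them for DNA-binding zinc finger proteins, 12 rose and 3 fell (6.38%). ZNF232 (0.36) and ZNF235 (0.34, with 0.05 in its other probe set) led the rises and ZNF165 (-0.54) the falls. The rises numbered 21 after quantile normalization, 17 after median centring and 4 to 7 with 1 array left out, fewest without 5SGlcNAc replicate 3. Of 238 solute carriers 6 rose and 14 fell as deposited (8.4%), 12 and 12 after quantile normalization and 9 and 10 after median centring. The amino acid carrier SLC38A4 fell by 0.60. Of 33 protein tyrosine phosphatases 4 fell (12.1%), led by PTPN22 (-0.75, with -0.01 in its dimmest probe set) and PTPRE (-0.55), and 2 or 3 fell with 1 array left out. Of 21 tetraspanins 5 fell (23.8%), led by TSPAN8 (-0.45), and 3 to 5 fell with 1 array left out. In the circadian clock list, NPAS2, a partner of the clock proteins, had 9.57, 9.77 and 9.80 in 5SGlcNAc cells against 10.45, 10.46 and 10.41 in DMSO cells, and fell by 0.73, with -0.20 in 1 of its 5 probe sets. In the WNT list, WNT7B (-0.42) fell beside NDP, and in the axon guidance list the secreted SEMA3A fell by 0.56.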
